A study of Sorghum bicolor with 12 samples.

Results

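Expansins are small proteins of the plant cell wall, and in the sorghum leaf gene table they were taken as every gene whose product description names an expansin. The rule found 80 of 33897 genes, which the descriptions divide into 37 A-type expansins (expansin-A), 39 B-type expansins (expansin-B) and 4 expansin-like A genes, with no expansin-like B gene. The samples were leaf RNA of 2 cultivars of Sorghum bicolor, Sanchisan (SCS) and Jinliang 5 (JL), under drought or with a normal water supply (control). The 4 groups were SCS under drought, SCS control, JL under drought and JL control, with 3 libraries each and 12 in all. How long and how severe the drought was, how old the leaves were and how many plants a library holds is not in the labels. They do not state either that replicates were separate plants, so a p-value speaks only for the spread of these samples, part of which may be technical.

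Expansins loosen the wall without cutting its polymers: they let cellulose microfibrils and the matrix between them slip when the wall is acid, which lets a turgid cell enlarge. A-type expansins (alpha-expansins) do this in the walls of land plants in general, while B-type expansins (beta-expansins) form a large family in grasses and include the pollen allergens of maize and related species, which loosen grass walls. The expansin-like A family is recognised by sequence, and wall loosening has not been shown for it. In leaves, expansins are best known from the elongation zone at the base of growing grass blades, and growth of the blade slows early under drought.

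Libraries held 15.04 to 18.36 M counts. Levels of 1 gene between groups are given as CPM, counts scaled to library size with TMM, and levels between genes in the FPKM that the authors deposited, which divide by gene length. JL drought replicate 2 was the highest of all 12 libraries for 10 of the 20 members that could be tested. JL control replicate 1 was the highest of its group for 16 of them. The share of all tested genes highest in these libraries was not counted, so this is not shown to be particular to expansins. Some members may also have passed the filter on low counts through such a library. The photosynthetic genes described next had their highest sum in JL drought replicate 2 too. The label of leaf was checked on 17 genes of photosynthetic leaf cells (chlorophyll a-b binding proteins, the small subunit of Rubisco, phosphoenolpyruvate carboxylase), none of which was at 0 in any library. Their summed level was 3193 to 13909 FPKM in SCS drought, 10784 to 36952 FPKM in SCS control, 51232 to 128700 FPKM in JL drought and 39097 to 107089 FPKM in JL control. Fewer cells of a type and less RNA per cell cannot be told apart in these whole-leaf samples. The sources used here do not say how reads shared by near-identical copies were counted, so the values of single genes among the neighbouring B-type genes of 1 description are uncertain.

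Most of the family had no count or very few in these leaves. In total 39 of the 80 genes had a count of 0 in every library, and a 0 over all 12 libraries allows a level of up to 0.0149 CPM for counting error alone. These were 20 A-type genes, 18 B-type genes and 1 expansin-like A gene. Among them were the genes described as expansin-B1-like, expansin-B9 and expansin-B9-like, numbers that in maize and rice are carried by pollen-expressed genes. A further 11 genes had 1 to 3 counts in all 12 libraries together.

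In all, 41 genes had a count, the 11 with very few included. Of the 41, at least 1 count was found for 26 genes in SCS drought, 25 in SCS control, 30 in JL drought and 27 in JL control. The share of all genes with a count was not taken. A mean of 1 FPKM or more was reached by 7 genes in SCS drought, 6 in SCS control, 13 in JL drought and 13 in JL control. A mean of 10 FPKM or more was reached by 2 genes in SCS drought, 1 in SCS control, 7 in JL drought and 1 in JL control. Each of the 7 in JL drought was highest in JL drought 2, and their lowest libraries stood at 0.302 to 6.27 FPKM. The JL drought count therefore leans on 1 library.

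Of the 41 genes with a count, 20 passed the filter on low counts and were tested: 7 A-type, 10 B-type and 3 expansin-like A genes. The other 21, of which 10 are A-type and 11 B-type, were not tested, and the highest of them was the putative expansin-A30 gene LOC8062868 with 125 counts in all. Of these, 63, 0 and 0 fell to the JL drought libraries, 0, 0 and 3 to JL control, 0, 0 and 7 to SCS drought and 11, 41 and 0 to SCS control, so 1 or 2 libraries of a group held them. A gene can pass the filter through the 1 group in which it is high, so counts over the 20 tested genes describe those genes and not the family. Expansin-A15 (LOC8080536), also not tested, had 1, 16 and 0 counts in the SCS drought libraries and 0 in the other 3 groups.

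**Figure D1:**
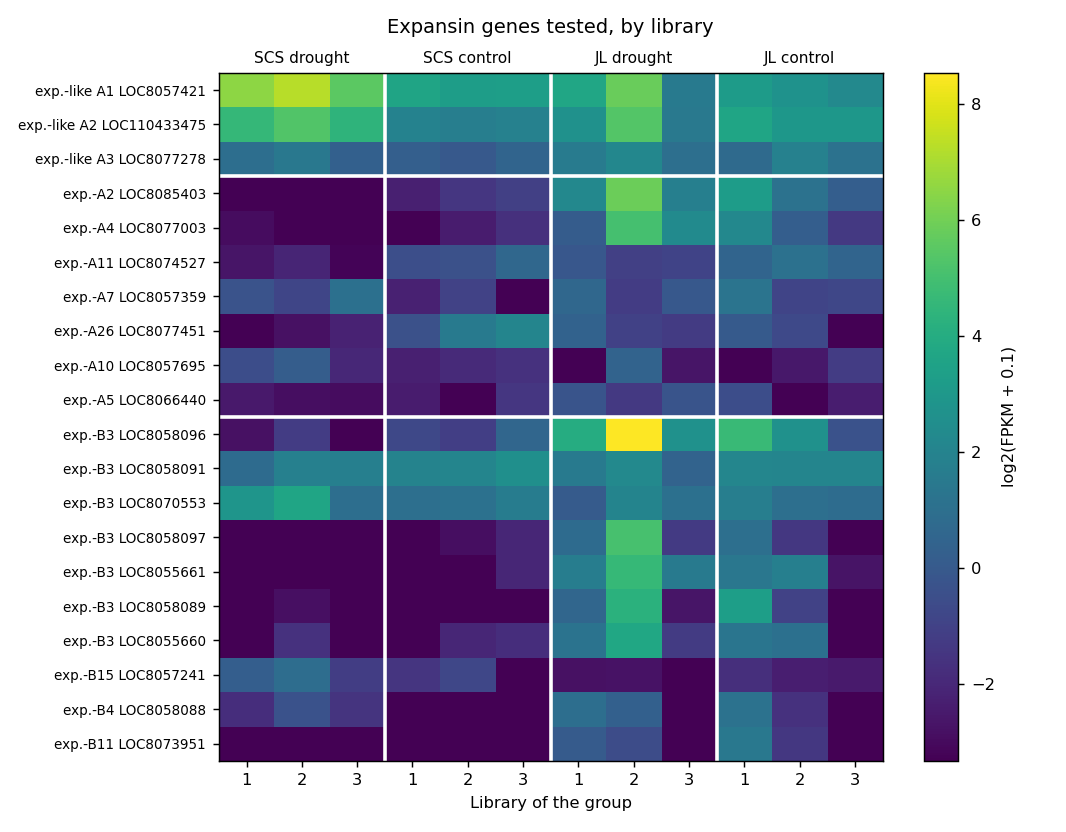
Level of the 20 tested expansin genes in each of the 12 libraries, as log2(FPKM + 0.1), with the groups as columns and the expansin-like A, A-type and B-type genes as blocks from top to bottom. Expansin-like A1 and A2 are bright in the 3 SCS drought libraries, most B3 genes are dark in all 6 SCS libraries, and JL drought replicate 2 is the brightest library of its group for 14 of the 20 genes.

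In SCS, drought went with higher expansin-like A1 and A2 and lower expansin-A11 and expansin-A26. In JL no expansin was called between drought and control. Under drought, JL had more expansin-A2, expansin-A4, expansin-A11 and 3 genes described as expansin-B3 than SCS, and less expansin-B15.

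Between SCS drought and SCS control, 2 of the 20 tested members were higher and 2 lower, where 4.09% of all tested genes were higher, 5.41% lower and 9.51% called in all. At an unadjusted edgeR p below 0.05 there were 7 members and 5469 genes in all (26.2%). DESeq2 called 5 members and 4065 genes (19.5%). Leaving out 1 library gave 0 to 2 members called by edgeR, and the share of all tested genes called was not taken in those fits. With 20 members, 4 calls are too few to read as a result about the family. Groups did not overlap for 4 members on the higher side and 5 on the lower side, where 14.6% and 19.2% of all tested genes did so. The median log2 fold change was -0.29 over the 20 members and -0.07 over all tested genes.

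Between JL drought and JL control edgeR called 0 of 20 members, where it called 0.0% of all tested genes. At an unadjusted p below 0.05 there were 2 members and 775 genes in all, and DESeq2 called 0 members and 44 genes. Groups did not overlap for 0 members on the higher side, where 2.63% of all tested genes did so, and for 2 on the lower side, expansin-A11 and expansin-B15, where 2.56% did so. The median was 0.92 over the members and 0.04 over all genes.

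For the interaction, the JL drought change minus the SCS drought change, edgeR called 0 of 20 members, where 0.326% of all tested genes were called higher, 0.187% lower and 0.513% in all. An unadjusted p below 0.05 was found for 4 members and for 3221 genes in all (15.4%), and DESeq2 called 1 member and 1357 genes (6.50%).

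Between JL control and SCS control edgeR again called 0 of 20 members, where 0.00958% of all tested genes were higher, 0.0144% lower and 0.024% called in all. At an unadjusted p below 0.05 there were 8 members and 3008 genes in all (14.4%), and DESeq2 called 2 members, LOC8055661 and LOC8058089, and 700 genes (3.35%). Groups did not overlap for 5 members higher in JL control and 1 lower, where 12.3% and 15.4% of all genes did so.

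Between JL drought and SCS drought, 6 of 20 members were higher in JL and 1 lower, where 11.2% of all tested genes were higher, 7.55% lower and 18.8% called in all. At an unadjusted edgeR p below 0.05 there were 14 members and 7122 genes in all (34.1%). DESeq2 called 10 members and 6055 genes (29.0%). Without SCS drought 1 the members called by edgeR numbered 2, and the share of all tested genes was not taken in that fit. Groups did not overlap for 10 members on the higher side and 1 on the lower side, where 17.2% and 15.6% of all genes did so. The median log2 difference was 3.19 over the members and 0.03 over all tested genes. Several of these members passed the filter through their JL counts, so the members' counts and median here are no measure of the family. The comparisons that use SCS drought share its 3 libraries.

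The members that rose in SCS drought were both expansin-like A genes. Expansin-like A1 (LOC8057421, chromosome 1 from 78317793 to 78320034, minus strand) had 148, 248 and 75.0 CPM in SCS drought, against 20.2, 15.9 and 16.7 CPM in SCS control. The groups did not overlap, and the lowest drought library lay well above the highest control library. The gene rose by a log2 fold change of 3.16 (standard error, SE, 0.87) in the edgeR quasi-likelihood test, with a Benjamini-Hochberg adjusted p of 0.0464 over all tested genes. It was the most abundant expansin-family transcript of SCS leaves in both states, at 96.4 ± 52.9 FPKM in drought and 10.5 ± 1.37 FPKM in control (SD, n = 3). The next in SCS control, the B3 gene LOC8058091 at 4.65 ± 1.09 FPKM and expansin-like A2 at 3.54 ± 0.24 FPKM (SD, n = 3), lay below it by more than their spread.

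Expansin-like A2 (LOC110433475, chromosome 1 from 59790023 to 59792244, minus strand) had 38.8, 65.2 and 34.3 CPM in SCS drought, against 6.28, 5.50 and 6.03 CPM in SCS control. Again all 3 drought libraries lay above all 3 control libraries, with the control libraries close together. It rose by a log2 fold change of 2.95 (SE 0.82, edgeR adjusted p = 0.0479). Both adjusted p-values stood close to 0.05: with 1 of the 6 SCS libraries left out, the call of expansin-like A1 held only without SCS drought 3 (adjusted p 0.0379 to 0.158), and that of expansin-like A2 in no case (0.0506 to 0.157). Without the filter on low counts neither passed, with edgeR adjusted p-values of 0.051 for expansin-like A1 and 0.0535 for expansin-like A2.

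The third member with counts, expansin-like A3 (LOC8077278), was low and level. It had 2.74, 3.85 and 1.68 CPM in SCS drought, against 1.69, 1.38 and 1.99 CPM in SCS control, and did not pass the test (edgeR adjusted p = 0.396). Summed over the expansin-like A genes, the level was 116, 194 and 68.9 FPKM in SCS drought, against 16.9, 13.7 and 14.9 FPKM in SCS control.

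In JL the same genes did not pass the test of drought. Expansin-like A1 had 21.1, 92.8 and 4.76 CPM in JL drought, against 14.7, 10.8 and 7.69 CPM in JL control. JL drought 2 was the highest and JL drought 3 the lowest of these 6 libraries, so the groups overlapped from end to end. Expansin-like A2 had 10.3, 67.3 and 4.39 CPM in JL drought, against 20.2, 12.8 and 12.9 CPM in JL control, with the same library highest and 2 drought libraries below all controls.

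The interaction, which tests the difference between the cultivars in this response, was -1.32 (SE 1.14, edgeR adjusted p = 0.615) for expansin-like A1 and -2.12 (SE 1.09, edgeR adjusted p = 0.381) for expansin-like A2, and neither passed. The value depended on JL drought 2: without that library it was -2.93 (edgeR adjusted p = 0.129) for expansin-like A1 and -4.01 (edgeR adjusted p = 0.0292) for expansin-like A2. Over all 21 alternatives the adjusted p ranged from 0.0818 to 0.806 for expansin-like A1 and from 0.0177 to 0.543 for expansin-like A2 (edgeR, DESeq2 and limma).

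The 2 cultivars were also compared directly under drought, where JL minus SCS was -1.99 (edgeR adjusted p = 0.117) for expansin-like A1 and -0.75 (edgeR adjusted p = 0.522) for expansin-like A2. Without JL drought 2 these were -3.60 (edgeR adjusted p = 0.0117) and -2.64 (edgeR adjusted p = 0.0068), both past the threshold. Over 16 alternatives the adjusted p ranged from 0.0062 to 0.283 for expansin-like A1 and from 0.0068 to 0.82 for expansin-like A2 (edgeR, DESeq2 and limma).

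**Figure D2:**
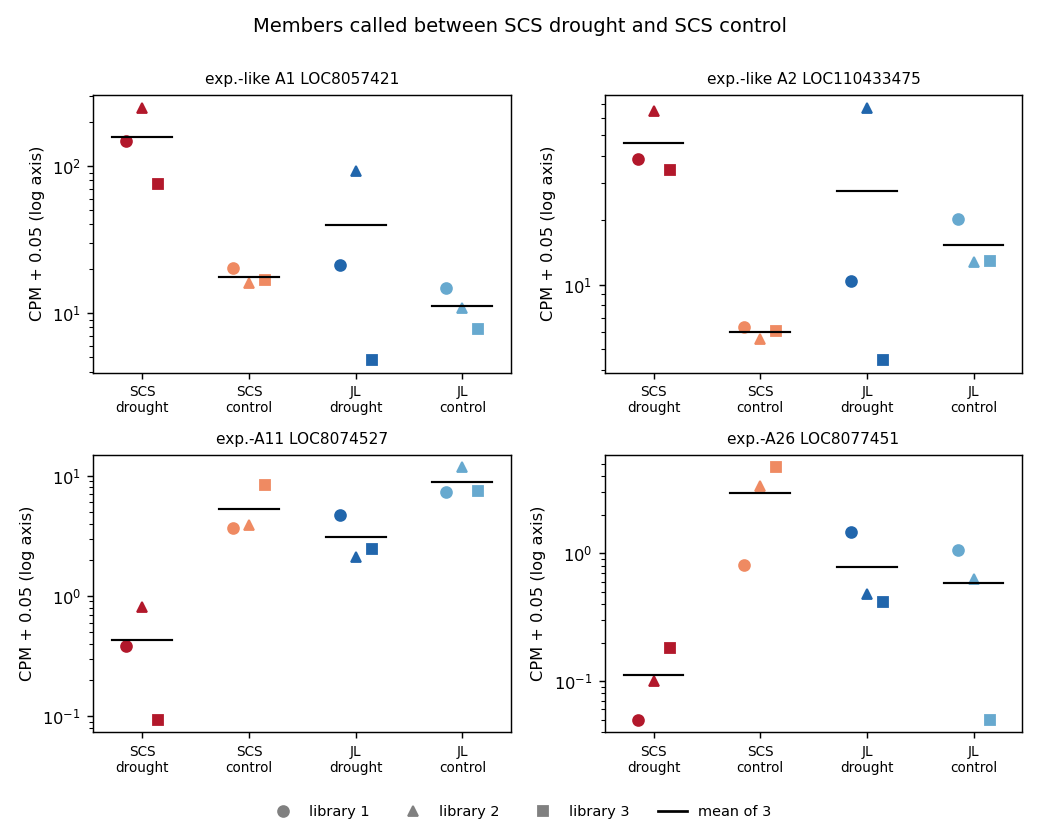
CPM + 0.05 on a log axis for the 4 members called between SCS drought and SCS control, with 1 point per library and a line at the mean of 3. In both upper panels the SCS drought libraries lie above the SCS control libraries, and in both lower panels under them; the JL groups overlap for 3 of the 4 genes.

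A-type genes fell under drought in SCS where they were called. Expansin-A11 (LOC8074527, chromosome 3 from 11875349 to 11883172, plus strand) had 0.336, 0.760 and 0.0441 CPM in SCS drought, against 3.61, 3.84 and 8.36 CPM in SCS control, with no overlap. It fell by 3.78 on the log2 scale (SE 0.81, edgeR adjusted p = 0.0191). The call was lost without SCS control 3 (adjusted p = 0.0768) and without SCS drought 1 (0.0828) and in a fit of the compared libraries only (0.0568), and the fitted change was -4.78 without SCS drought 2.

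Expansin-A26 (LOC8077451, chromosome 2 from 68078561 to 68079867, plus strand) had 0, 0.0507 and 0.132 CPM in SCS drought, against 0.758, 3.29 and 4.66 CPM in SCS control. The drought libraries hold a handful of reads and lie below every control library, among which replicate 1 is the low one. It fell by 5.36 on the log2 scale (SE 1.45, edgeR adjusted p = 0.0445), and the call was lost with any 1 of the 6 SCS libraries left out (adjusted p 0.0539 to 0.141, with a change of -6.43 without SCS drought 3) and without the filter (0.0585).

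Neither gene passed the test of drought in JL, where expansin-A11 had 4.69, 2.05 and 2.42 CPM in drought, against 7.22, 11.7 and 7.42 CPM in control. All 3 drought libraries lay below all 3 controls. Expansin-A26 had 1.41, 0.428 and 0.366 CPM in JL drought, against 1.02, 0.584 and 0 CPM in JL control, and overlapped. The interaction was 2.26 (SE 1.04, edgeR adjusted p = 0.328) for expansin-A11 and 5.83 (SE 1.85, edgeR adjusted p = 0.174) for expansin-A26. In DESeq2 the interaction of expansin-A26 was 5.92 with an adjusted p of 0.029, the only member call of that tool in this comparison; over 20 alternatives the adjusted p ranged from 0.029 to 0.351.

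Another pair of A-type genes was near absent in SCS and present in JL. Expansin-A2 (LOC8085403, chromosome 3 from 66191815 to 66193996, plus strand) had 7.58, 97.5 and 5.56 CPM in JL drought, against 0 CPM in each of the 3 SCS drought libraries. With the SCS count of 0 over the group set to a floor of 3 counts, the level was at least 741-fold higher in JL drought, and at least 132-fold higher without JL drought 2. The edgeR adjusted p was 0.00738, and the call held with each of the 6 libraries left out in turn but not in a fit of the compared libraries only (0.0578); DESeq2 gave no adjusted p for this gene.

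Under normal water, expansin-A2 had 15.1, 3.50 and 1.75 CPM in JL control, against 0.178, 0.459 and 0.625 CPM in SCS control. The groups did not overlap, but the difference of 4.0 on the log2 scale did not pass (SE 1.35, edgeR adjusted p = 0.296). Drought against control did not pass for this gene in SCS (edgeR adjusted p = 0.136), and its interaction was 8.27 (SE 2.49, edgeR adjusted p = 0.173). Without JL drought 2 the fitted interaction was 5.83 (edgeR adjusted p = 0.144). Since the SCS drought libraries were at 0, the size of this interaction depends on how a fit treats a 0. Over 20 alternatives it ran from 1.80 to 9.67.

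Expansin-A4 (LOC8077003, chromosome 9 from 52916846 to 52924061, minus strand) followed the same order, with 1.88, 60.5 and 9.37 CPM in JL drought, against 0.0560, 0 and 0 CPM in SCS drought. In rice the expansin of that number has been described in growing internodes and seedlings. With 1 count in the 3 SCS drought libraries together, in replicate 1, the JL to SCS ratio of counts was 1357, with an exact 95% binomial interval of 243 to 53663 that covers counting error only. Without JL drought 2 the ratio was 346 (61.2 to 13764). The edgeR adjusted p was 0.00974, and the call held with each of the 6 libraries left out.

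Expansin-A4 had 8.32, 2.00 and 0.540 CPM in JL control, against 0, 0.167 and 0.398 CPM in SCS control, again without overlap. That difference of 4.26 on the log2 scale did not pass (SE 1.53, edgeR adjusted p = 0.301). In both genes 1 library held most of the JL signal: JL drought 2 carried 88.1% of the summed CPM of JL drought for expansin-A2 and 84.3% for expansin-A4.

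Expansin-A11 differed between the cultivars in drought too, at 4.69, 2.05 and 2.42 CPM in JL against the SCS drought values given above, all of which were lower. The log2 difference was 2.99 (SE 0.79, edgeR adjusted p = 0.0264), a comparison that uses the same SCS drought libraries as the fall in SCS. It was lost without SCS drought 1 (adjusted p = 0.0905) and without JL drought 1 (0.0643), with the compared libraries only (0.12) and with limma on log2(FPKM + 1) (0.115), and was 4.0 without SCS drought 2. Of the A-type genes not called, expansin-A7 (LOC8057359) had 1.12, 0.709 and 3.00 CPM in SCS drought, against 0.178, 0.625 and 0 CPM in SCS control, without overlap (edgeR adjusted p = 0.205). In JL it had 2.27, 0.513 and 1.32 CPM in drought, against 3.40, 0.667 and 0.742 CPM in control, which overlap. Expansin-A10 (LOC8057695) had 0.728, 1.27 and 0.177 CPM in SCS drought, against 0.134, 0.208 and 0.284 CPM in SCS control (edgeR adjusted p = 0.484), and 0, 1.54 and 0.0732 CPM in JL drought, against 0, 0.0834 and 0.405 CPM in JL control. The drought and control libraries overlap in both cultivars. Expansin-A5 stayed at or below 1.10 CPM in every library.

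Summed over the A-type genes, the level was 1.85, 2.54 and 2.64 FPKM in SCS drought, against 2.13, 6.17 and 6.62 FPKM in SCS control. In JL it was 14.1, 95.4 and 10.7 FPKM in drought, against 19.3, 6.32 and 3.83 FPKM in control. On the log2 scale the ratio of these JL mean FPKM sums was 2.03 with all libraries, 0.34 without JL drought 2 and 2.98 without JL control 1.

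**Figure D3:**
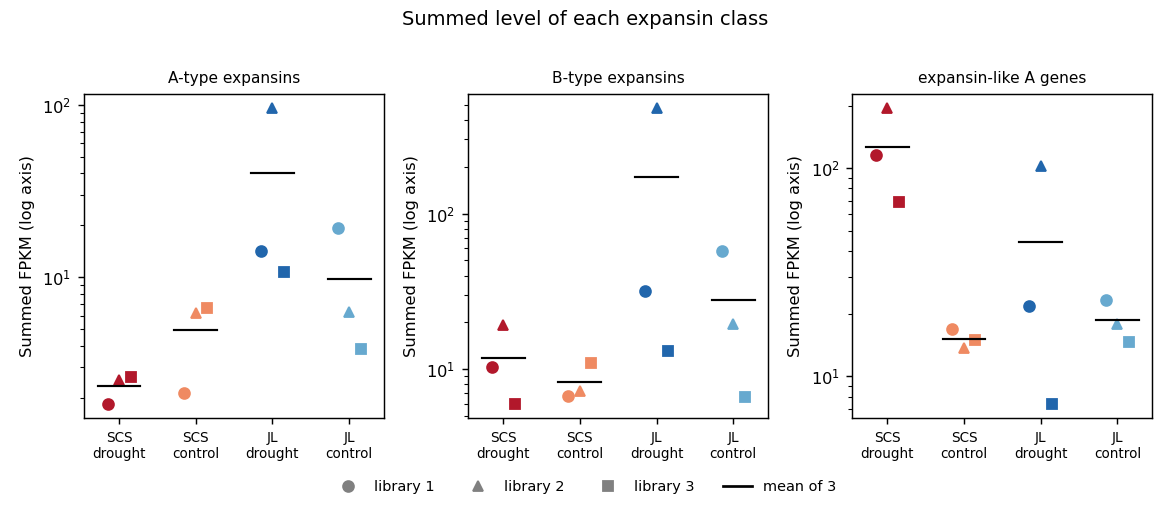
Summed FPKM of the A-type, B-type and expansin-like A genes in each library, on log axes that differ in range, with a line at the mean of 3. JL drought replicate 2 is at 95.4 FPKM for A-type and 475 FPKM for B-type genes, while the other 2 JL drought libraries lie at 10.7 to 31.7 FPKM; for expansin-like A genes the 3 SCS drought libraries lie above all SCS control libraries.

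The B-type genes with counts came largely from 1 stretch of chromosome 1. Between positions 58171800 and 58351954, a span of 180 kb, lie 10 B-type genes, 8 on the plus and 2 on the minus strand, with 4 other genes among them. This array held 88.7% of all 12965 B-type counts. Its counts summed to 831 in SCS drought, 1405 in SCS control, 7690 in JL drought and 1570 in JL control. Of its 10 genes, 8 had a count and 7 were tested. In all, 44 of the 80 expansin genes stand in 10 arrays of 3 or more genes with gaps of at most 100 kb, and the other 9 arrays hold 1 tested gene between them. An array of 7 A-type genes at 24405589 to 24482366 on the same chromosome had no count in any library.

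The most abundant array gene was the expansin-B3 gene LOC8058096 (58340478 to 58342016, plus strand). It had 19.9, 456 and 7.83 CPM in JL drought, against 0.0560, 0.405 and 0 CPM in SCS drought. Each JL drought library lay above each SCS drought library, by a wide margin. The log2 difference was 9.99 (SE 2.22, edgeR adjusted p = 0.0132). The ratio of group means was 1049 with all libraries and 90.0 without JL drought 2. The call was kept in the second case (fitted difference 6.44, adjusted p = 0.0258) and lost without SCS drought 1 (0.0602), with the compared libraries only (0.0544) and with voom quality weights (0.0842). The fitted difference was 12.27 without SCS drought 2.

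In rice, B3 expansins have been described in the elongating internode. LOC8058096 had 32.4, 7.84 and 0.877 CPM in JL control, against 0.624, 0.459 and 1.76 CPM in SCS control, where JL control 3 lay within the SCS range. That difference was 3.86 on the log2 scale (SE 1.67, edgeR adjusted p = 0.335). At 131.6 ± 208.8 FPKM it led all expansins in JL drought, with an SD above the mean, followed by expansin-like A1 at 24.3 ± 28.9 FPKM and expansin-A2 at 22.5 ± 32.1 FPKM (SD, n = 3), and these did not differ beyond their spread. At 11.2 ± 13.6 FPKM in JL control it did not stand apart from expansin-like A2 at 9.33 ± 2.71 FPKM (SD, n = 3).

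A second B3 gene, LOC8055661 (58236560 to 58238355, plus strand), had 3.75, 29.5 and 3.37 CPM in JL drought, against 0 CPM in all 3 SCS drought libraries. It was at least 245-fold higher in JL drought by the floor of 3 counts, and at least 71.5-fold higher without JL drought 2 (edgeR adjusted p = 0.0171 with all libraries, and 0.0532 without SCS drought 1). In control it had 2.97, 4.09 and 0.0675 CPM in JL, against 0, 0 and 0.171 CPM in SCS, where 1 JL library lay within the SCS range (log2 difference 5.35, SE 1.79, edgeR adjusted p = 0.295).

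The B3 gene at the end of the array, LOC8058097 (58350448 to 58351954, minus strand), had 2.03, 41.0 and 0.366 CPM in JL drought, against 0 CPM in all 3 SCS drought libraries. It was at least 290-fold higher by the same floor, and at least 24.1-fold higher without JL drought 2. Its edgeR adjusted p was 0.0344, and the call was lost without JL drought 2 (0.0793) and without any 1 of the 3 SCS drought libraries (0.0688 to 0.0895), and with limma on log2(FPKM + 1) (0.107). In control it had 2.29, 0.334 and 0 CPM in JL, against 0, 0.0417 and 0.171 CPM in SCS, so the groups overlapped.

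A pair of further B3 genes of the array had no call but the same order of JL drought libraries. LOC8058089 had 1.72, 22.8 and 0.0732 CPM in JL drought, against 0, 0.0507 and 0 CPM in SCS drought (edgeR adjusted p = 0.0763). In control it had 11.8, 0.500 and 0 CPM in JL, against 0 CPM in all 3 SCS libraries (edgeR adjusted p = 0.301). LOC8055660 had 2.50, 14.9 and 0.366 CPM in JL drought, against 0, 0.253 and 0 CPM in SCS drought (edgeR adjusted p = 0.0653). The drought groups did not overlap for either gene.

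Not every gene of the array had this pattern. The B3 gene LOC8058091 (58243979 to 58250983) lies between the others and had 13.1, 20.8 and 5.71 CPM in JL drought, against 7.56, 15.6 and 15 CPM in SCS drought (edgeR adjusted p = 0.946). It took 63.6% of its counts from the SCS libraries, while the other B3 genes of the array took 0.23% to 4.61%. In control it had 19.1, 18.5 and 18.6 CPM in JL, against 17.9, 19.1 and 27.1 CPM in SCS, where replicate 3 was the highest of all 12 libraries. A pair of B2 genes of the array had no count, and its B6 gene had counts in JL drought 2 only.

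Across the 6 tested array genes other than LOC8058091, 5 were highest of all 12 libraries in JL drought 2, 5 were highest of JL control in replicate 1, and 6 were lowest of JL control in replicate 3. The exception in the first count was expansin-B4 (LOC8058088), at 2.74, 1.71 and 0 CPM in JL drought, against 0.280, 1.01 and 0.353 CPM in SCS drought. It was at 0 in all 3 SCS control libraries, so it was at least 11.7-fold higher in SCS drought by the floor. That difference did not pass in edgeR (adjusted p = 0.153) but did in DESeq2 (log2 6.02, adjusted p = 0.0457). Most of the 6 genes carry the same description and lie side by side, and they are not independent of each other.

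**Figure D4:**
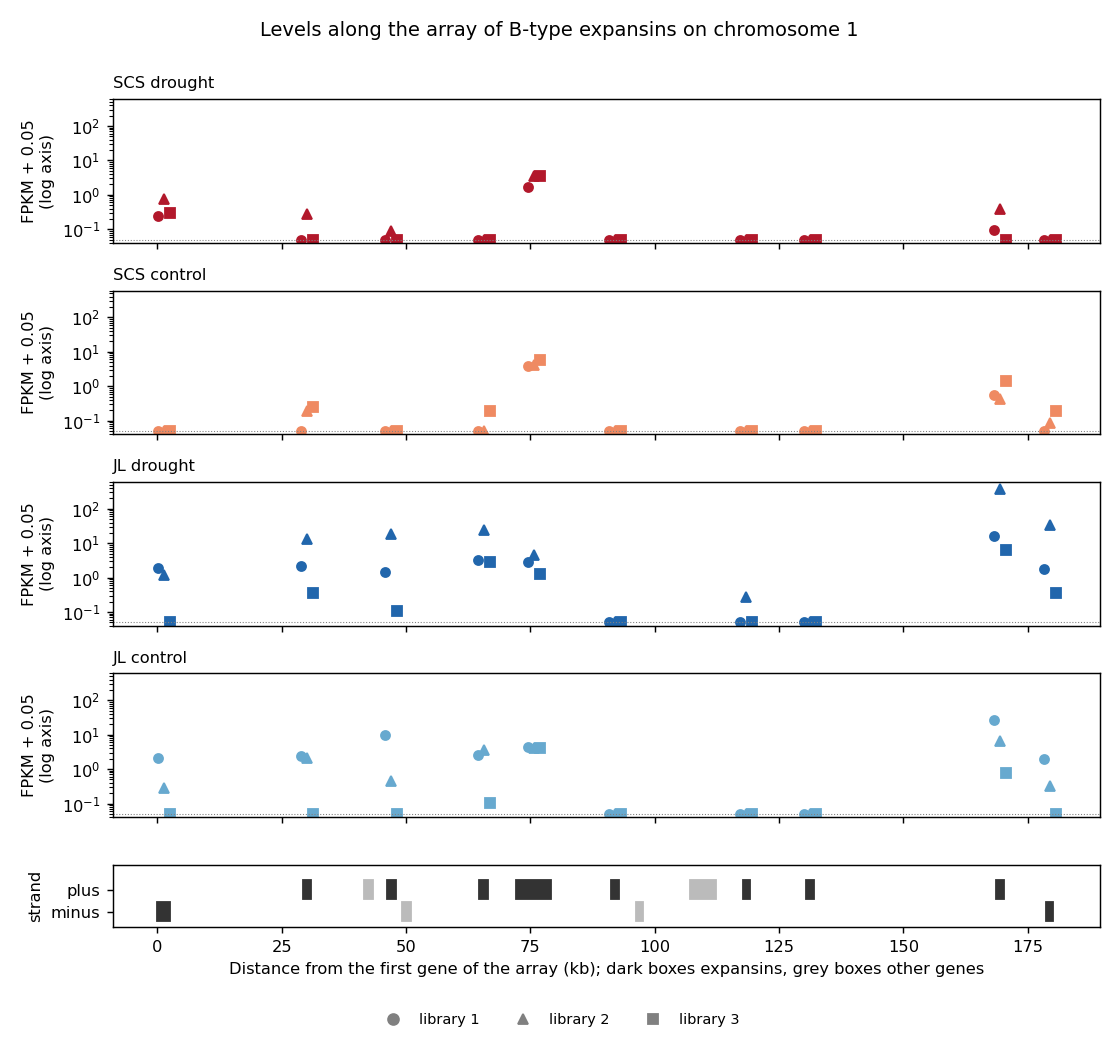
FPKM + 0.05 on a log axis for the 10 B-type genes of the array on chromosome 1, by distance in kb from the first gene, with 1 panel per group and 1 symbol per library; in the strand panel dark boxes mark the expansins and grey boxes the other genes. In JL drought library 2 lies above the others at 7 of the 8 positions with a count. In SCS every position but the gene near 75 kb has at most 1.40 FPKM, before the 0.05 is added.

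Outside the array, the B3 gene LOC8070553 (chromosome 4 from 54338659 to 54341706) was the B-type gene with the highest mean in SCS drought. It had 11.3, 19.8 and 2.87 CPM in SCS drought, against 3.16, 3.34 and 5.00 CPM in SCS control, and the groups overlapped through SCS drought 3 (edgeR adjusted p = 0.177). In JL it had 1.56, 6.25 and 3.15 CPM in drought, against 5.10, 3.09 and 2.77 CPM in control.

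Expansin-B15 (LOC8057241, chromosome 1 from 12595943 to 12599680, minus strand) ran against the other called B-type genes. It had 0.0782, 0.0856 and 0 CPM in JL drought, against 1.79, 2.99 and 0.574 CPM in SCS drought. In control it had 0.340, 0.167 and 0.135 CPM in JL, against 0.446, 0.834 and 0 CPM in SCS, which overlap. With 2 counts in JL drought as a whole, the ratio of SCS to JL was 32.9, with an exact 95% binomial interval of 8.89 to 275. The gene was lower in JL (edgeR adjusted p = 0.0364), and the call held only without SCS drought 3 among the left-out libraries (adjusted p 0.0371 to 0.0989, with a ratio of 21.2 without SCS drought 2). It was also lost without the filter (0.0532), with the compared libraries only (0.0535) and with voom quality weights (0.076).

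Summed over the B-type genes, the level was 31.7, 475 and 13.0 FPKM in JL drought, against 57.5, 19.6 and 6.64 FPKM in JL control. LOC8058096 alone made up 78.4% of the B-type FPKM of JL drought 2. The log2 ratio of the JL mean FPKM sums was 2.64 with all libraries, -0.32 without JL drought 2 and 3.73 without JL control 1. In SCS the sums were 10.3, 19.1 and 6.01 FPKM in drought, against 6.70, 7.25 and 10.9 FPKM in control, which overlap.

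Other wall and growth genes were counted by lists of descriptions. Beside them, edgeR called 4.09% of all tested genes higher and 5.41% lower in SCS drought against control. Between the cultivars under drought it called 11.2% higher in JL and 7.55% lower. No set test was run, and single calls in such short lists are no result about a list. Of 9 plasma membrane ATPase genes, the proton pumps that acidify the wall, 8 were tested and 1 rose in SCS drought: LOC8062975 had 299 ± 228 CPM in SCS drought and 56.0 ± 26.5 CPM in SCS control (SD, n = 3; log2 2.42, SE 0.61, edgeR adjusted p = 0.0346). None was called between the cultivars in drought, and the median was -0.44 in SCS drought against control and 0.42 in JL minus SCS under drought, where all tested genes had -0.07 and 0.03. Of 29 xyloglucan endotransglucosylase/hydrolase genes (XTH), which cut and rejoin xyloglucan, 11 were tested. In that list 1 fell in SCS drought (median 0.06), and 4 were higher in JL drought than in SCS drought, with a median log2 difference of 2.11. The most abundant of the 4, LOC8063814, had 199 ± 124 CPM in JL drought and 46.2 ± 16.7 CPM in SCS drought (SD, n = 3; edgeR adjusted p = 0.0282).

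Of 25 endoglucanase genes 9 were tested, of which 1 fell in SCS drought (median 1.22) and 1 was lower in JL drought than in SCS drought (median -0.14). The gene lower in JL drought, LOC8084557 (endoglucanase 9), had 1.29 ± 1.16 CPM in JL drought and 28.6 ± 8.92 CPM in SCS drought (SD, n = 3; edgeR adjusted p = 0.00279). Of 45 SAUR genes, a family of auxin-induced growth regulators, 20 were tested: 2 rose in SCS drought (median 0.07), and 1 was higher and 1 lower in JL drought than in SCS drought (median 1.57). Of 12 cellulose synthase genes all were tested, with 1 lower in SCS drought (median 1.05, of the other sign) and 1 higher in JL drought than in SCS drought (median 1.23). The gene lower in SCS drought, LOC8082253, was a low one. It had 0.0775 ± 0.0902 CPM in SCS drought and 1.33 ± 0.56 CPM in SCS control (SD, n = 3, edgeR adjusted p = 0.0492). No gene of these 5 lists was called between JL drought and JL control, in the interaction or between the control groups.

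Markers of other cell types were read beside the expansins in the same way, and the shares of all tested genes given above hold for them too. The vessel list was a search for laccases, xylem cysteine proteases and some fasciclin-like arabinogalactan proteins. That of dividing cells was a search for A and B cyclins and some proteins of DNA replication and division. For lignifying vessels (29 genes, 14 tested) the summed level was 175, 463 and 58.1 FPKM in SCS drought, against 22.5, 36.0 and 44.6 FPKM in SCS control. In JL it was 83.6, 349 and 19.2 FPKM in drought, against 148.5, 72.4 and 13.2 FPKM in control. Within each of the 4 groups the libraries stood in the order of the B-type sum, with replicate 2 highest in both drought groups. This order was not particular to the vessel list: the endoglucanase list shared it in all 4 groups, with 126, 281 and 56.5 FPKM in JL drought, against 285, 174 and 32.5 FPKM in JL control, and with 107.0, 209 and 65.6 FPKM in SCS drought, against 42.9, 55.1 and 66.6 FPKM in SCS control. The photosynthetic list shared it in 3 of the 4, all but SCS control. Other wall and growth lists did not follow it in JL drought. There the XTH list had 172, 293 and 292 FPKM, the SAUR list 221, 92.4 and 65.9 FPKM, and the proton pumps 961, 484 and 578 FPKM. Of the vessel list 3 genes rose in SCS drought (median log2 fold change 3.34) and 3 were lower in JL drought than in SCS drought.

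Cellulose synthases had the same order too, with 172, 371 and 89.3 FPKM in SCS drought, against 67.3, 71.6 and 121.4 FPKM in SCS control, and with 275, 714 and 80.8 FPKM in JL drought, against 732, 414 and 69.2 FPKM in JL control. Markers of dividing cells (37 genes, 19 tested) did not: they summed to 66.4 to 90.0 FPKM in SCS drought, 64.2 to 101.8 FPKM in SCS control, 58.0 to 63.4 FPKM in JL drought and 58.6 to 65.4 FPKM in JL control. JL drought 2 stood at 58.5 FPKM within that range, and no gene of the list was called in any comparison. The photosynthetic list had a median log2 difference of 3.91 between JL drought and SCS drought, with 14 of 17 genes higher in JL. The pollen list was a search for pollen allergens, pollen-specific proteins, exopolygalacturonases and profilins. Its 42 genes, of which 15 were tested, summed to 248.8 to 349.7 FPKM in SCS drought and 253.8 to 309.6 FPKM in SCS control. In JL the sums were 332.0 to 373.0 FPKM in drought and 320.8 to 411.8 FPKM in control. Of the pollen list 1 gene rose and 1 fell in SCS drought, and 1 was higher and 2 lower in JL drought than in SCS drought. The root list was a search for descriptions naming root hairs, root-specific proteins, CASP-like proteins or the Casparian strip. Whether the genes of these 2 lists are confined to pollen or roots was not tested. Of the 41 genes of the root list 24 were tested, and 3 rose in SCS drought. In the interaction 1 was lower (0.187% of all tested genes), and 2 were higher and 4 lower in JL drought than in SCS drought. The root list summed to 340.0 to 499.2 FPKM in SCS drought, 228.0 to 284.8 FPKM in SCS control, 290.2 to 431.2 FPKM in JL drought and 314.7 to 369.7 FPKM in JL control. Genes at 0 in all 12 libraries numbered 5 in the vessel list, 4 in the dividing cell list, 18 in the pollen list and 12 in the root list. In all 12 libraries 1 gene led the dividing cell sum, LOC8084652 at 26.5 to 49.8 FPKM. The pollen sum was led by LOC8071328 (101.5 to 300.4 FPKM) and the root sum by LOC8069443 (82.4 to 254.2 FPKM). These sums therefore lean on 1 gene each. The part of these cell types in the expansin values was not tested.

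**Figure D5:**
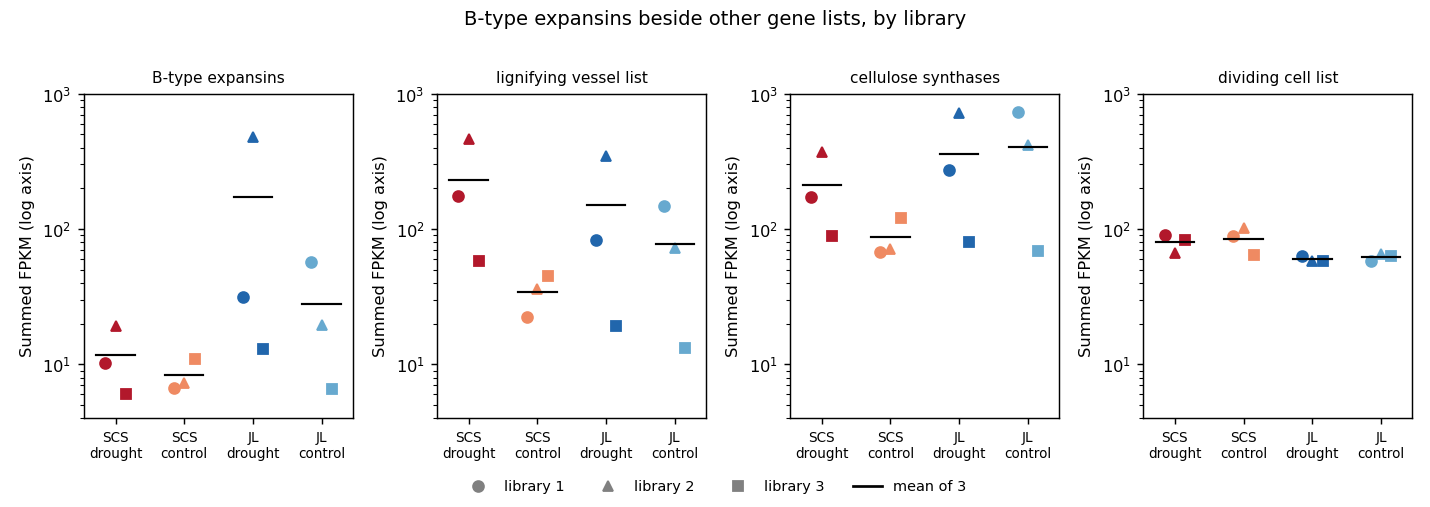
Summed FPKM of the B-type expansins, the lignifying vessel list, the cellulose synthases and the dividing cell list in each library, on a common log axis, with a line at the mean of 3. In all 4 groups the first 3 panels put the libraries of a group in the same order, while the dividing cell list lies between 58.0 and 101.8 FPKM in all 12 libraries.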

How the data were processed

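The submitters' processing notes list StringTie 1.3.3b, STAR and HISAT2 2.0.4 without saying what each did. The program that counted reads, whether it used strand, and the genome build: not given in the sources used here. Tests ran on the deposited gene counts, whole numbers that the authors had not normalised. The deposited FPKM equalled count over gene length and 1 constant per library, and were used for levels between genes and for alternative fits. Gene names, descriptions and coordinates are those of the deposited table; all 80 expansins had the same ID and span in the RefSeq gene table of Sorghum_bicolor_NCBIv3. No sequence is shown.

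Counts of all 33897 genes were filtered with edgeR's filterByExpr (minimum count 10, total 15), which kept 20873, and TMM scaling gave factors from 0.757 to 1.41. The edgeR 4.0.16 quasi-likelihood test (R 4.3.3) had 1 mean per group over all 12 libraries, and p-values were adjusted over all tested genes by Benjamini and Hochberg, with calls below 0.05. The common coefficient of variation was 63.3%. SE values are the log2 fold change divided by the root of the F statistic. The method was tested on simulated data. A fold against a group at 0 used a floor of 3 counts over the group, and groups with 1 to 3 counts an exact 95% interval; both cover counting error only. Any pair of libraries of 1 group differed by more than counting noise (chi-square per gene 42.9 to 295), and each counted once. The same-numbered libraries of different groups did not deviate together, and no pairing was used.

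As alternatives the fit was repeated with DESeq2 1.42.0, with upper-quartile or RLE scaling, without a filter, with a stricter filter (at least 1 CPM in 6 libraries), with the compared libraries only, with a replicate block, with limma 3.58.1 on log2(FPKM + 0.1) and log2(FPKM + 1), and with each library left out; voom with quality weights was added after seeing the data. The members and lists were chosen with earlier results of these data known, and 5 false matches were dropped from 2 marker lists after their descriptions were read. Genes described in full were those called in any comparison and, in each group, the 3 A-type and 3 B-type genes highest in mean FPKM, 17 in all; others were chosen after their values were seen.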

Additional observations from a re-analysis of the deposited data

How the results depend on the processing

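Which members were called depended on the fit and on single libraries. Between SCS drought and SCS control the 4 calls became 1 without the filter, 5 with DESeq2 and 10 with voom quality weights, and 0 to 2 with 1 library left out. The replicate block gave 1; libraries of the same number did not deviate together across groups (correlations of -0.491 to 0.383), so the numbers do not pair the samples. Between JL drought and SCS drought the 7 calls became 10 with DESeq2 and 8 with limma on log2(FPKM + 0.1). They became 3 under the stricter filter, 2 with the compared libraries only, and 2 to 7 with 1 library left out. The fewest came without SCS drought 1, and without JL drought 2 there were 7. For the interaction, 0 calls became 1 with DESeq2, 1 with voom quality weights and 0 to 1 with 1 library left out, the 1 without JL drought 2. Between JL control and SCS control, 0 calls became 2 with DESeq2 and 13 with voom quality weights, whose library weights ran from 0.285 to 7.99. Between JL drought and JL control no alternative called a member. Among the alternatives, the share of all tested genes called was taken only for DESeq2. It was 19.5% in SCS drought against control, 0.211% in JL drought against control and 6.50% in the interaction. Between the cultivars it was 3.35% in control and 29.0% under drought. The other counts have no background beside them and are no result about the members. The log2 ratio of the summed B-type CPM of JL drought to JL control, 2.19 with all libraries (2.64 on summed FPKM), ran from -0.46 without JL drought 2 to 2.87 without JL control 1. The cause was not tested in any of these. The 22 fold changes of single genes recomputed were those called or chosen for printing, and in some 1 group was at 0 throughout. Such a choice favours a stable sign and is no independent check. Under every alternative run for them, 22 of the 22 kept their sign. The sums did not all do so: without JL drought 2 the JL ratio of summed CPM, drought to control, was -0.00045 for A-type genes (1.65 with all libraries) and -0.33 for expansin-like A genes (1.25), and that of B-type genes in SCS ran from -0.42 to 0.22. Most members lie below 1 FPKM, where a few reads decide the value. Counts summed over near-identical copies were not run, since protein sequences were not used here.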

Other observations

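The 3 genes described as expansin-B11 with more than 3 counts, picked after their values were seen, had counts in JL libraries only. LOC8073951 had 1.48, 0.856 and 0 CPM in JL drought, against 0 CPM in all 3 SCS drought libraries, where a count of 0 over the group allows up to 0.0498 CPM. In control it had 3.91, 0.417 and 0 CPM in JL, against 0 CPM in all 3 SCS libraries, which allows up to 0.0469 CPM. It was tested and did not pass in either comparison (edgeR adjusted p = 0.141 in drought and 0.318 in control). LOC8057963 had 9 counts in JL drought and 17 in JL control, and LOC8076229 had 5 in JL drought and 14 in JL control; neither had a count in SCS, and neither was tested. Of the other genes described as expansin-B11, 6 were at 0 in all 12 libraries, and LOC8057965, LOC8059516 and LOC8081543 had 1 count each, in an SCS library.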
